A study of Mus musculus with 12 samples.

Results

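The Fos and Jun genes described here were Fos, Fosb, Fosl2, Jun, Junb and Jund, which encode 6 of the subunits of the AP-1 transcription factor. They were chosen by name, and all 6 were listed among the 40508 gene names in the 3 tables, 1 table per time point. The samples were prefrontal cortex (PFC) of adult C57BL/6 mice (C57BL/6 J in the methods) labelled 10 weeks old, in 6 groups of 2 libraries, 12 in all. Each library pooled the PFC of 5 mice. According to the methods of the study, male mice received intraperitoneal cocaine (20 mg/kg per day) or saline daily for 14 days, and tissue was taken 2 h, 24 h or 7 d from the final dose, so every saline group was also injected. The tissue was a block from the tip of the brain with frontal association, prelimbic and orbital cortex, and saline mice of the same time point were the controls. The question for these genes was whether AP-1 mRNA differed between cocaine and saline mice early, in the middle and late in withdrawal.

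AP-1 is a dimer. A Fos protein needs a Jun partner, whereas Jun proteins can also pair among themselves, and the dimers bind DNA at TGACTCA and related letters through a basic region next to a leucine zipper. Fos, Fosb and Junb are classical immediate-early genes: their transcription is switched on within minutes of synaptic activity through factors bound at cAMP-response and serum-response elements, and their mRNAs decay fast. Jund is produced more steadily. Fosb also yields the short splice form deltaFosB, a stable protein known to accumulate in reward-related brain regions under repeated drug exposure.

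The values were FPKM, a fragment count divided by transcript length and by the number of mapped fragments, and each table gave 1 FPKM per group, pooled by the authors over the 2 libraries of that group. There was therefore no spread between replicates, no SD and no test of any difference below, and the depth behind each value is unknown from these files. Ratios are cocaine over saline within a table, and values listed in a row follow the order 2 h, 24 h and 7 d. The columns of the tables are headed with codes that do not spell out the treatment. The direction of every ratio rests on the first value being saline. The supplementary tables of the study, under spelled-out headings, hold close but not identical values in that order for most of the genes they list. A gene was counted as past the threshold when this ratio reached 1.5-fold in either direction, counting genes whose 2 values averaged 1 FPKM or more (13858, 14037 and 13931 genes). In bulk tissue, fewer cells that express a gene and less RNA per cell cannot be told apart.

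The promoters of Fos, Junb and Fosb are shown because these genes had the largest ratios of the family at 2 h, and that of Jun because its ratio stayed closest to 1 at that time. Each is the RefSeq (GRCm38.p6) window from 250 bases before to 50 bases after the transcription start, on the strand of the gene. Capitals mark TGACG (the first letters of a cAMP-response element, TGACGTCA), TGACATCA and TATAAA. The windows were chr12:85473640-85473939 (plus strand) for Fos, chr8:84978699-84978998 (minus) for Junb, chr7:19309996-19310295 (minus) for Fosb and chr4:95052173-95052472 (minus) for Jun.
Fos: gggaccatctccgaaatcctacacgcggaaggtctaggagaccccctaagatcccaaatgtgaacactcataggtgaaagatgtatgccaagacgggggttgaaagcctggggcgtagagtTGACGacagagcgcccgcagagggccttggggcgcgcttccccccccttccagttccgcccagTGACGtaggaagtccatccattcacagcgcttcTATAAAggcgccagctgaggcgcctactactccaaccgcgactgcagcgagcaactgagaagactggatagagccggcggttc
Junb: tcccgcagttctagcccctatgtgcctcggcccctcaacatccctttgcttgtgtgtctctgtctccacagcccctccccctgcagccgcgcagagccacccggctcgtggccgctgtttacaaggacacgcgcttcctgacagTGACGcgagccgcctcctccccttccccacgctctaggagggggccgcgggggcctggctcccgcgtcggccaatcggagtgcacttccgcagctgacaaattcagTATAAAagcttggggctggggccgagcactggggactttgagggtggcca
Fosb: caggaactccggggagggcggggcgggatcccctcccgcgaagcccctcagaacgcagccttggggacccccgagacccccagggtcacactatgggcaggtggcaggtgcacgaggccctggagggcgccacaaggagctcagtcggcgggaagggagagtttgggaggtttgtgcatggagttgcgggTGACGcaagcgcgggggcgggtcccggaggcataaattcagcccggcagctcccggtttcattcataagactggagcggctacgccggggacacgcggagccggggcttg
Jun: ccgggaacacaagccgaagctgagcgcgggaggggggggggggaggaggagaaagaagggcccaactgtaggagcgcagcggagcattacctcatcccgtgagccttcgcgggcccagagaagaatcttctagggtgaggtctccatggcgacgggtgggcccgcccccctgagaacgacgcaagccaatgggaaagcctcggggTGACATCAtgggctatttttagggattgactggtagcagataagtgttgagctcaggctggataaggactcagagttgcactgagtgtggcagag

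Positions below count from the transcription start, with -1 as the base before it. TGACG stood at positions -129 and -66 of the Fos window, at -106 of Junb and at -60 of Fosb, each time on the strand of the gene. For Fosb the window takes 19310045 as the start, whereas the RefSeq gene reaches to 19310118 on this minus-strand gene, so that its TGACG lies inside the gene as counted from that outer end. Neither strand of the Fosl2, Jun and Jund windows held it, and 20.8% of all 32851 promoter windows of this length did on 1 strand or the other. These 3 genes with TGACG were also the 3 with the largest ratios at 2 h. Fosl2 lacked TGACG and was past the 1.5-fold threshold at 2 h too (1.78-fold). A link between these letters and the ratios was not tested. The Jun window held TGACATCA at -45, as did 3.62% of all windows on either strand. TATAAA was found at -33 of Fos and at position 1 of Junb, and in 13.6% of all windows. CCAAT, the letters of the CCAAT box, was found in Jun and Junb and in 37.4% of all windows. None of the 6 windows held the AP-1 letters TGACTCA (5.20% of all windows), the full TGACGTCA (1.79%, which contains TGACG) or a CArG box, the core of the serum-response element (1.63%). A match or the lack of it describes letters in these windows only, and binding was not measured. Bases further from the start were not searched, so a serum-response element outside the windows would have been missed.

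Cocaine mice had more mRNA of 4 of the 6 genes at 2 h by the 1.5-fold threshold: Fos, Junb, Fosb and Fosl2. At 24 h Fos and Junb were past it, and at 7 d Fos alone was. No member was past the threshold in the direction of less mRNA at any time. Of all genes, 2.06%, 1.35% and 1.21% were past the threshold with more mRNA in cocaine mice, and 1.52%, 1.03% and 1.73% with less. The median log2 ratio of the 6 members was 1.03, -0.06 and 0.30, and that of all genes was 0.02, 0.01 and -0.01. At 7 d all 6 members had a ratio above 1, Jun by 0.0766%, as did 47.3% of all genes, whereas at 24 h only Fos and Junb did.

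**Figure D1:**
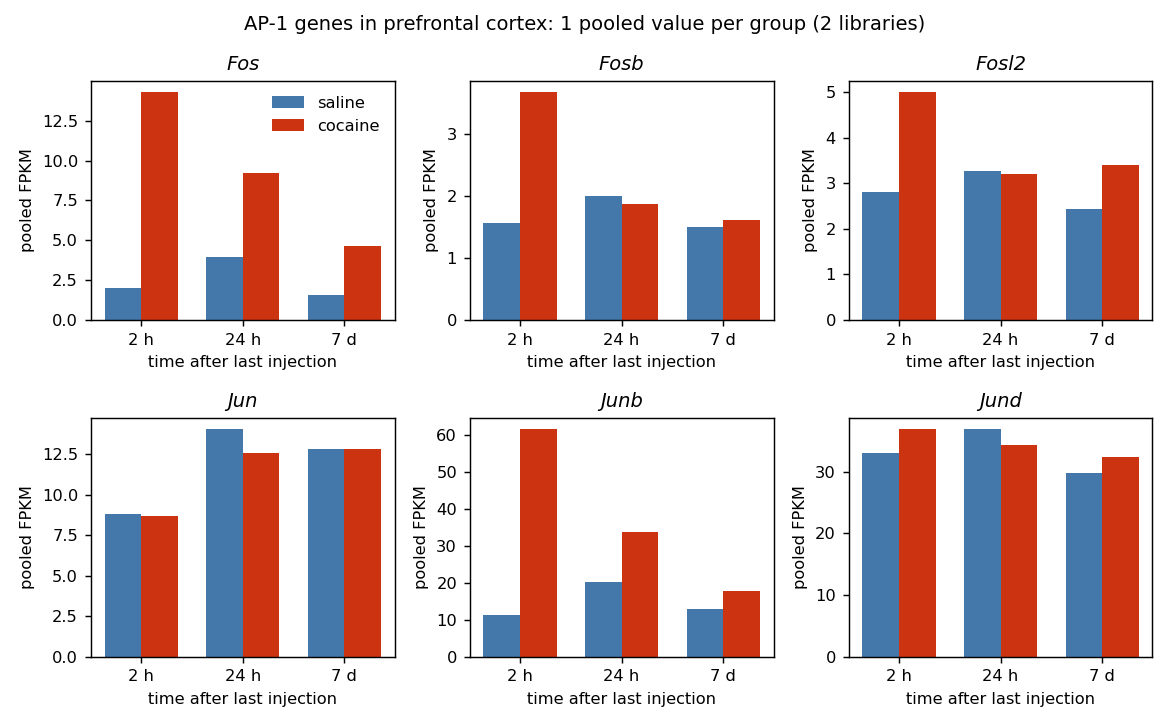
Pooled FPKM of the 6 AP-1 genes (y axis, from 0, with a scale of its own in each panel) in saline (blue) and cocaine (red) mice 2 h, 24 h and 7 d after the last injection; each bar is 1 value pooled over 2 libraries, so there are no error bars. Fos and Junb stand higher in cocaine at every time, Fosb at 2 h only by more than 10%, and the bars of Jun and Jund lie close together.

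Fos (chromosome 12, 85473890 to 85477273 on GRCm38) encodes the founding Fos subunit, and its mRNA is widely used to mark recently active neurons. Its FPKM in saline mice was 2.02, 3.95 and 1.59, and in cocaine mice 14.3, 9.24 and 4.66. The 3 cocaine values were all higher than the 3 saline values, and Fos was the only member without overlap. The ratio was 7.06-fold, 2.34-fold and 2.93-fold, on ranks 9, 75 and 46 of all genes counted from the highest ratio. On the log2 scale the ratio at 2 h was 1.60 above that at 24 h and 1.27 above that at 7 d, and at 7 d it was 0.32 above that at 24 h. The saline value was highest at 24 h, whereas the cocaine value was highest at 2 h and lowest at 7 d. With 1 added to each FPKM the log2 ratios were 2.34, 1.05 and 1.13, against 2.82, 1.23 and 1.55 without.

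Junb (chromosome 8) encodes a Jun subunit that pairs with Fos proteins and is a weaker activator than Jun at many genes. Its FPKM in saline mice was 11.4, 20.2 and 12.9, and in cocaine mice 61.6, 33.7 and 17.9. Cocaine was higher within each time point, but the cocaine value of 7 d lay below the saline value of 24 h. The ratio was 5.41-fold, 1.67-fold and 1.39-fold, on ranks 14, 143 and 286. In FPKM units the difference at 2 h was 50.2, the largest of the family, against 12.3 for Fos. The Junb locus was drawn from 84956610 to 84978757 at 2 h and 24 h, a span that also takes in Prdx2 and Rnaseh2a, and from 84976909 to 84978748 at 7 d, which is the RefSeq gene. Prdx2 and Rnaseh2a had values of their own in the same span, with ratios of 0.995 and 1.11 at 2 h. At 24 h Prdx2 had a ratio of 1.01, and Rnaseh2a had 11.4 FPKM in saline mice and 14.2 in cocaine mice.

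Fosb (chromosome 7, 19302700 to 19310085 at 2 h and 24 h) encodes full-length FosB and deltaFosB, and a value per gene does not separate the splice forms. Its FPKM in saline mice was 1.57, 1.99 and 1.496, and in cocaine mice 3.67, 1.86 and 1.61. Only the cocaine value at 2 h stood apart from the other 5, which lay between 1.496 and 1.99. The ratio was 2.34-fold, 0.936-fold and 1.08-fold. At 2 h this was rank 53 of all genes, while at 24 h 21.0% of all genes had a lower ratio. Fosb had the lowest FPKM of the 6 genes in every group, and of all genes averaging 1 to under 5 FPKM, 3.58% were 1.5-fold higher in cocaine at 2 h.

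Fosl2 (chromosome 5, 32136472 to 32157831) encodes Fra-2, a Fos subunit without the strong activation domain of Fos and FosB. The FPKM in saline mice was 2.80, 3.26 and 2.44, and in cocaine mice 4.99, 3.20 and 3.39. Cocaine was highest at 2 h, and at 24 h the 2 groups were nearly equal. The ratio of 1.78-fold at 2 h was on rank 136, that of 0.980 at 24 h on rank 8871 and that of 1.39-fold at 7 d on rank 278. Fosl2 and Junb thus had nearly the same ratio at 7 d, just under the threshold.

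Jun (RefSeq gene at 95049036 to 95052222 of chromosome 4) encodes c-Jun, the Jun subunit that is activated by JNK kinases. Its FPKM in saline mice was 8.80, 14.05 and 12.8, and in cocaine mice 8.67, 12.6 and 12.8. The levels differed more between time points than between treatments. The ratio was 0.985, 0.894 and 1.001. In the tables Jun shared a locus of 118285 bases with Junos, its antisense neighbour, whose row also named n-R5s189 and had 1.06 to 1.48 FPKM. The library kit, which does not keep the strand, leaves reads from Jun and an antisense RNA over the same bases undistinguished.

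Jund (RefSeq gene at 70697739 to 70700616 of chromosome 8) encodes the Jun subunit that is widely present in resting cells. The FPKM in saline mice was 33.1, 36.9 and 29.9, and in cocaine mice 36.9, 34.4 and 32.5. The highest value was 1.23-fold the lowest among saline groups and 1.14-fold among cocaine groups, and the ratio was 1.11, 0.933 and 1.09. The lowest value was that of 7 d in both treatments. At 7 d the locus was drawn over 7814 bases, against 2878 at 2 h and 24 h, which limits this comparison. Jund shared its locus with Gm11175, listed at 79.7 to 118 FPKM, and the part of that overlap in the Jund values was not tested. At 24 h a second, smaller Jund locus was listed at 0.488 FPKM (saline) and 0.538 (cocaine).

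**Figure D2:**
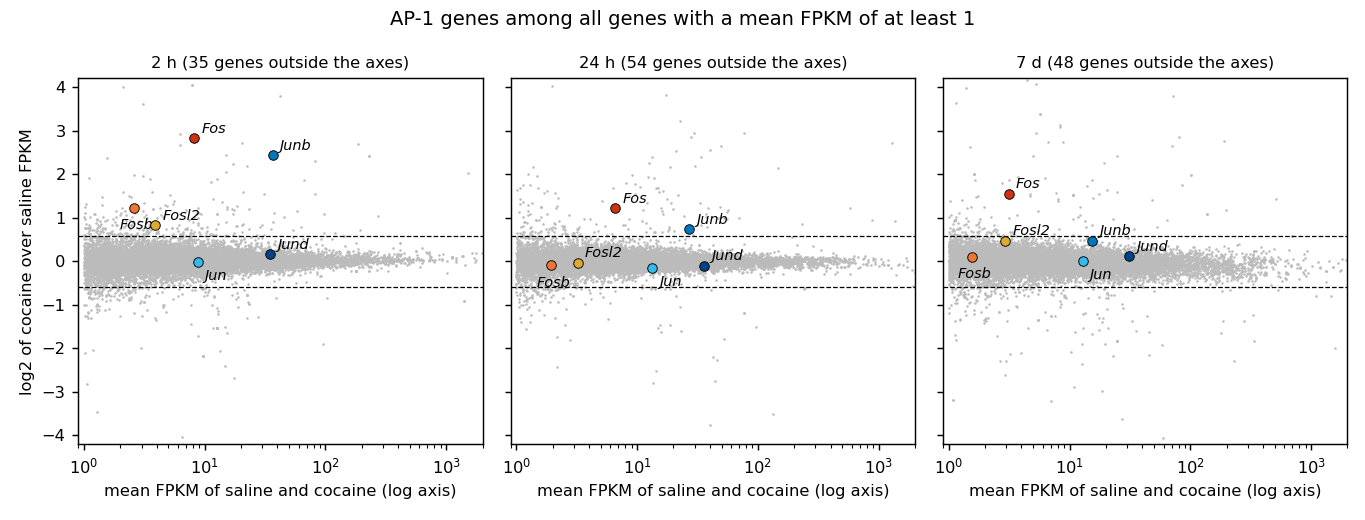
Log2 ratio of cocaine over saline FPKM (y axis) against the mean FPKM of both groups (x axis, log scale) for all genes averaging 1 FPKM or more (grey points), 1 panel per time point; coloured points are the 6 AP-1 genes and the dashed lines mark 1.5-fold. At 2 h Fos and Junb lie far above the grey cloud with log2 ratios of 2.82 and 2.44, at 7 d only Fos lies above the upper line, and Jun and Jund stay inside the lines throughout.

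The tables were normalized separately, so levels set across time points carry that limit. Over 13576 genes listed at the same locus in both tables, the saline FPKM at 24 h was 1.01-fold that at 2 h at the median, and 0.823-fold to 1.28-fold from the 5th to the 95th percentile of genes. Saline Fos was 1.96-fold higher at 24 h than at 2 h, Junb 1.77-fold and Jun 1.60-fold, and these 3 genes lay above that range. Saline Fosb (1.27-fold), Fosl2 (1.17-fold) and Jund (1.11-fold) lay inside it. Compared with saline at 7 d, saline at 24 h was 2.48-fold higher for Fos, 1.34-fold for Fosl2 and 1.10-fold for Jun, whose loci were the same in both tables. Over the 6545 genes listed at the same locus there, the 5th to 95th percentile was 0.741-fold to 1.36-fold. Fos lay above that range, and Fosl2 and Jun lay inside it. Cocaine Fos was 1.55-fold higher at 2 h than at 24 h and 3.06-fold higher than at 7 d, and for Junb these values were 1.83-fold and 3.44-fold. The cocaine FPKM of genes at the same locus was 0.793-fold to 1.28-fold at 24 h over 2 h, from the 5th to the 95th percentile. For 7 d over 2 h this range was 0.739-fold to 1.30-fold. The Junb locus was not the same at 2 h and 7 d (22148 and 1840 bases), which limits its value of 3.44-fold. The differences between time points were not tested, because each group has 1 pooled value.

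Since FPKM is per length, the levels of the 6 genes could be set side by side within a group. Jund shared its locus with Gm11175, so its place in the order and all shares of the sum carry that limit. In saline mice Jund was the most abundant at every time, followed by Junb and Jun, and the 3 Fos genes together made up 10.7%, 11.5% and 9.05% of the summed FPKM. In cocaine mice at 2 h the order changed to Junb, Jund, Fos, Jun, Fosl2 and Fosb. Junb then made up 47.3% of the sum against 19.1% in saline, Fos 11.0% against 3.39%, and Jund 28.4% against 55.5%. At 24 h and 7 d Jund stayed the most abundant in cocaine mice too, with 36.2% and 44.6% of the sum, and Junb made up 35.5% and 24.6%.

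The summed FPKM of the 6 genes was 59.7, 80.3 and 61.1 in saline mice and 130.1, 94.9 and 72.8 in cocaine mice, with ratios of 2.18, 1.18 and 1.19. Without Jund, which shares its locus with Gm11175, the ratios of the sums were 3.51, 1.39 and 1.29. The sum of the Fos genes was 3.59-fold, 1.55-fold and 1.75-fold higher in cocaine mice, and that of the Jun genes 2.01-fold, 1.13-fold and 1.14-fold. Jun genes thus outweighed Fos genes by 8.35, 7.72 and 10.1 to 1 in saline mice and by 4.67, 5.64 and 6.54 to 1 in cocaine mice. Fos itself was 31.6%, 42.9% and 28.8% of the Fos-gene sum in saline mice and 62.3%, 64.6% and 48.2% in cocaine mice.

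**Figure D3:**
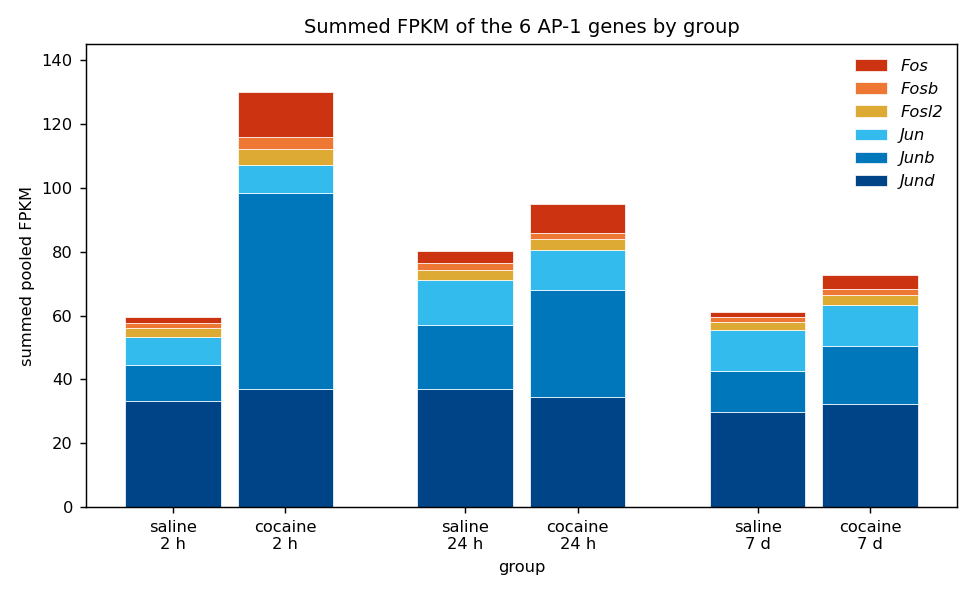
Summed pooled FPKM of the 6 AP-1 genes (y axis, from 0) in each of the 6 groups (x axis), with 1 colour per gene and no error because each group has 1 pooled value. The cocaine 2 h bar reaches 130.1 against 59.7 in saline, mostly through the Junb segment, while the Jund segment is of similar height in all bars.

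Other bZIP proteins that can pair with or replace AP-1 subunits were taken as a list of 14 genes. Of these, 10 averaged 1 FPKM or more at 2 h, and 1 was past the threshold, Mafk, a small Maf protein (2.14 in saline and 3.27 in cocaine, 1.53-fold). None of the 9 at 24 h or the 9 at 7 d was. Of all genes, 1.35% and 1.21% were past it upwards at those times, and 1.03% and 1.73% downwards. The remaining Fos gene, Fosl1 (Fra-1), was near the lower limit at 1.28 to 1.87 FPKM in the 6 groups, with ratios of 1.26, 1.06 and 0.908. At 24 h a second row at the same locus also named Fosl1, and the row with the higher mean was used. Atf3, an inducible stress-response factor, had 0.139 FPKM (saline) and 0.379 (cocaine) at 2 h, under the limit. Jdp2, which encodes a repressor that pairs with Jun proteins, had 24.3 and 25.8 FPKM at 2 h. The median log2 ratio of the list was 0.17, 0.10 and 0.00.

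Regulators known to act on the Fos promoter formed a list of 14 genes, and 0 of 14 were past 1.5-fold at each time. The highest ratio among them was that of Srf, the serum response factor, at 2 h (9.92 in saline and 13.8 in cocaine, log2 0.48). Creb1, which binds cAMP-response elements, had log2 ratios of 0.13, 0.03 and 0.10. A ratio above 1 was seen for 12, 10 and 12 of the 14 genes, and for 56.4%, 53.2% and 47.3% of all genes, with a median log2 ratio of 0.16, 0.06 and 0.18. Kinases that act on Fos and Jun proteins (ERK, JNK, RSK and MSK kinases and the kinases above them, 14 genes) had 0 of 14 past the threshold at each time and median log2 ratios of 0.05, 0.04 and 0.01. Within that list Mapk3 (ERK1) had 81.5 FPKM (saline) and 93.6 (cocaine) at 2 h, and Mapk8 (JNK1) 17.8 and 17.9. Of all genes, 2.06%, 1.35% and 1.21% were past the threshold upwards, and 1.52%, 1.03% and 1.73% downwards. A count of 0 of 14 does not set either list apart from all genes.

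A list of 7 genes held parts and adaptors of ubiquitin ligases linked to the breakdown of Jun protein. Of these, Trib1, an adaptor of the COP1 ligase, was past the threshold upwards at 2 h and 24 h. Its FPKM was 2.68, 3.63 and 2.75 in saline mice and 7.72, 5.86 and 3.95 in cocaine mice. The ratio was 2.88-fold (rank 35) at 2 h, 1.61-fold at 24 h and 1.44-fold at 7 d. Rfwd2, which encodes COP1 itself, had 11.5 FPKM in both groups at 2 h. Det1, a further part of that ligase, was 0.662-fold in cocaine at 7 d, at 2.19 and 1.45 FPKM. The median log2 ratio of the list was 0.05, -0.01 and 0.01. Jun protein was not measured, and whether Trib1 acts on it was not tested.

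Genes that have been described as AP-1 or deltaFosB targets in the brain or elsewhere were a list of 11, of which 9, 10 and 9 passed the FPKM limit. None of them was past 1.5-fold at any time, and the median log2 ratio was 0.12, 0.06 and 0.06. Of all genes, 2.06%, 1.35% and 1.21% were past it upwards, and 1.52%, 1.03% and 1.73% downwards. A count of 0 in a list of this size does not set it apart from all genes. Cdk5, a neuronal kinase gene, had 39.1 FPKM (saline) and 37.8 (cocaine) at 2 h and 42.02 and 36.9 at 7 d. Pdyn, which encodes the dynorphin precursor, had 12.9 and 15.4 at 2 h, and Ccnd1 (cyclin D1) 14.7 and 17.7.

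The other immediate-early genes were a list of 13. At 2 h 12 of 13 were 1.5-fold higher in cocaine, with a median log2 ratio of 1.28. The largest ratios were those of Arc, a synaptic effector (5.59 and 77.8 FPKM), Egr2, a zinc-finger factor (0.466 and 5.72), Nr4a1 (8.05 and 36.7) and Dusp1 (5.85 and 24.2). The saline value of Egr2 was under 1 here, which inflates its ratio. With 1 added to each value its log2 ratio at 2 h was 2.196, against 3.617 without. It then still lay below Arc (3.579) and above Nr4a1 (2.059). At 24 h 6 of 13 were past the threshold upwards, led by Egr2 (3.21-fold), Arc (2.33-fold), Egr1 (1.99-fold) and Nr4a3 (1.70-fold). The lead of Egr2 at 24 h also rested on a saline value under 1 (0.716, against 2.30 for cocaine). With 1 added to each value its log2 ratio at 24 h was 0.94, below Arc (1.19) and Egr1 (0.98). Nr4a2 was past the threshold downwards at 24 h (2.56 and 1.49 FPKM, 0.583-fold). At 7 d 4 of 11 were past it upwards, namely Arc (3.33-fold), Egr1 (1.70-fold), Dusp1 (1.68-fold) and Nr4a1 (1.53-fold). In the same tables Fos was 1 of 8 genes, of 13510 averaging 1 FPKM or more at every time, that were 1.5-fold higher in cocaine at all 3 times (0.0592%). The others were Arc, Egr1 and Nr4a1 of that list and Dusp5, Gm11772, Gm15432 and RP23-480D7.1, of which the last 4 were named after their values were seen. The difference between these genes and the AP-1 genes was not tested.

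**Figure D4:**
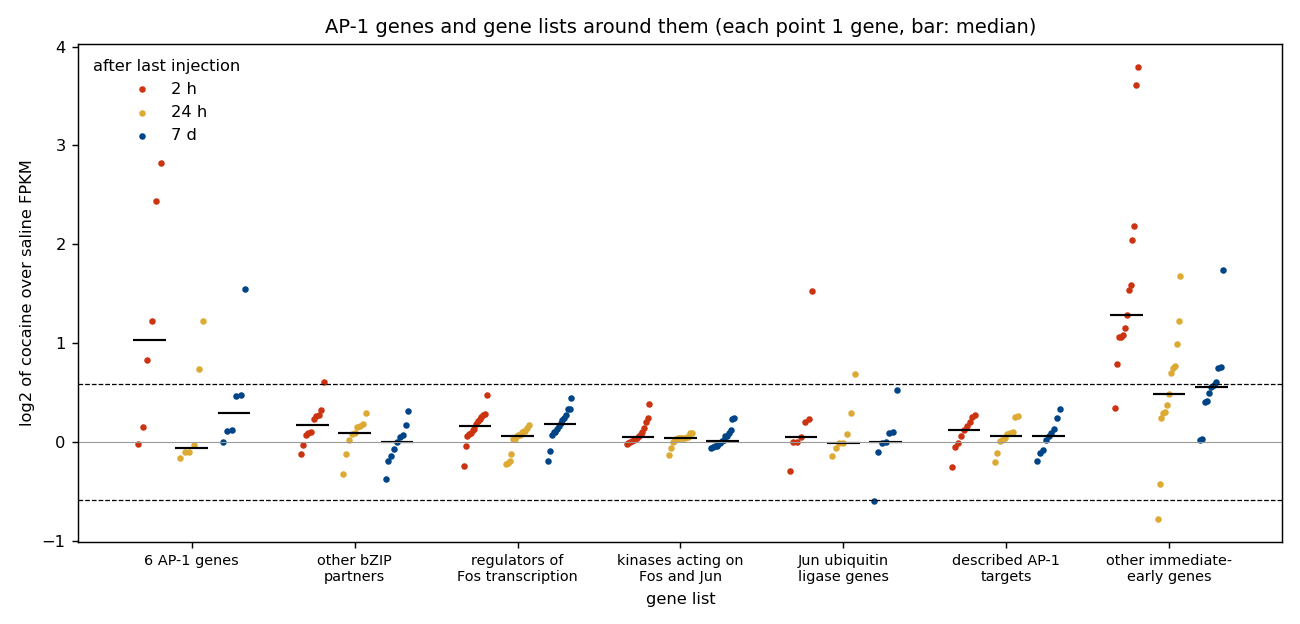
Log2 ratio of cocaine over saline FPKM (y axis) for the 6 AP-1 genes and 6 lists of related genes (x axis) at 2 h (red), 24 h (yellow) and 7 d (blue); each point is 1 gene averaging 1 FPKM or more, short bars are medians and dashed lines mark 1.5-fold. Above the upper line lie 4, 2 and 1 of the 6 AP-1 genes at 2 h, 24 h and 7 d. Of the other immediate-early genes 12 of 13, 6 of 13 and 4 of 11 do. Medians are 1.03, -0.06 and 0.30 for the AP-1 genes and 1.28, 0.49 and 0.56 for the other immediate-early genes. The regulators and kinases stay between the lines.

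The genes whose 3 log2 ratios lay nearest to those of a member, by Euclidean distance over the 3 time points and 13510 genes, were found for the 4 members past the threshold. For Fos they were Arc (distance 0.99), Gm13392 (1.11, a locus of 150 bases) and Junb (1.24). Arc had log2 ratios of 3.80, 1.22 and 1.74, and it was the only gene within a distance of 1 of Fos. For Junb they were Nr4a1, an orphan nuclear receptor gene (0.29), Gm12840 (0.42) and Dusp1, a MAP kinase phosphatase gene (0.54). Nr4a1 had log2 ratios of 2.19, 0.70 and 0.61, beside 2.44, 0.74 and 0.47 for Junb. Fosb was nearest to Gm26809 (0.18), Sdf2l1 (0.28) and Chic2 (0.31). The nearest to Fosl2 were Gm24270 (0.06), Nkx2-2 (0.14) and Smad7 (0.17), of which Gm24270 was listed at 109283 to 592457 FPKM at a locus shared with Peak1. As 7470 genes lay within a distance of 1 of Fosl2 and 1181 of Fosb, against 9 for Junb, likeness to these Fos genes singles out little.

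The tissue label was checked against markers. Cortical neuron genes were well detected, with 466 to 532 FPKM for Slc17a7 (vesicular glutamate transporter) and 27.6 to 33.5 for Tbr1 in the 6 groups, and 0 of 7 were past 1.5-fold at any time. Of the striatal markers Ppp1r1b was at 46.4 to 57.7 FPKM, Rgs9 at 1.37 to 2.41 and Drd2 at 0.146 to 0.234, and Drd1 had no row under that symbol. The choroid plexus markers Folr1, Kl and Clic6 stayed under 1 FPKM, while Ttr had ratios of 0.243, 0.611 and 23.1. Ttr was low in most groups, at 1.90, 1.80 and 0.284 FPKM in saline mice and 0.461, 1.10 and 6.54 in cocaine mice. With 1 added to each FPKM its log2 ratio at 7 d was 2.56, against 4.53 without. Adora2a, a further striatal marker, was at 0.805 and 1.35 FPKM at 7 d (1.68-fold). Of the olfactory bulb markers Eomes was at or below 0.0276 FPKM and Cdhr1 at 0.353 to 0.496, whereas Doc2g was at 5.83 to 6.71. Omp was at 12.3 to 13.4 FPKM at 2 h and 24 h and at 0.105 and 0.139 at 7 d. Its step was thus between tables and not between treatments. The Omp locus was drawn over 88525, 90459 and 89904 bases, and the part of other genes in that span in its values was not tested. None of the 2, 2 and 1 olfactory bulb markers that reached the FPKM limit was past the threshold. Red blood cell genes moved with the 2 h result: 5 of 5 were higher in cocaine and 4 of 5 by 1.5-fold, with sums of 323 FPKM (saline) and 504 (cocaine), against 458 and 504 at 24 h and 452 and 529 at 7 d. Oligodendrocyte markers summed to 727 in saline and 598 in cocaine at 24 h, and astrocyte markers to 264 and 235. Microglial and endothelial sums had ratios between 0.949 and 1.12, and no gene of these 4 lists was past the threshold. The part of these shifts in the AP-1 values was not tested.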

How the data were processed

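RNA from the PFC of 12 libraries (6 groups of 2) was sequenced on poly(A)-selected, unstranded libraries. After trimming, the authors mapped reads with TopHat2, used uniquely mapped ones and ran Cuffdiff of Cufflinks on cocaine and saline at each time. The processing notes of the submitters name Trimmomatic 0.32, TopHat2 2.0.12, Cufflinks 2.2.1 and GRCm38, whereas the methods name cutadapt, Cufflinks 2.0 and mm9; the positions of the loci match GRCm38, and start positions were made 1-based. The 3 deposited tables hold 1 pooled FPKM per group, plus the fold change, test statistic, p and q values of the authors, which were not used. The groups carry codes with and without a leading C, a letter that the sample descriptions use for cocaine. The first value was nevertheless taken as saline, because the supplementary tables of the study list close values for most of their genes under the headings saline and cocaine in that order at all 3 times. The values are not identical, some genes differ by more than rounding, and no gene compared matched in the reverse order. With 1 pooled value per group, ratios were described without a test.

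Ratios were computed in Python 3.11.15 with pandas 2.3.3 and numpy 2.4.6, without a pseudocount, and plotted with matplotlib 3.10.9. Genes needed a mean FPKM of at least 1 and 2 values above 0. A name on several loci took its longest locus (ties: the higher mean). The steps were tested on simulated data with planted ratios. Named genes were the 6 members, up to 4 genes per list and time past 1.5-fold, and the 3 nearest genes of each member past it; further genes of the lists were named for their roles or after their values were seen. The members and lists were chosen with earlier results of these data known. All 6 members matched 1 RefSeq promoter window each.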

Additional observations from a re-analysis of the deposited data

How the results depend on the processing

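No paired analysis was possible because each table holds 1 pooled value per group and its columns carry no replicate numbers, and for the same reason no library could be left out. The count of members past 1.5-fold stayed at 4, 2 and 1 with a pseudocount of 1 or 0.1, centring on the median of all genes, summing loci and taking rows that name the member alone. It was 3 at 2 h and 1 at 24 h with a threshold of 2-fold, and 3 at 7 d with a threshold of 0.32 on the log2 scale. The count of all genes past the threshold in either direction was 497, 334 and 410. It was 251, 180 and 229 with a pseudocount of 1, 1720, 1026 and 1829 at the lower threshold, 161, 136 and 173 at 2-fold, 3431, 3311 and 3498 without the limit on FPKM, and 187, 125 and 168 with a limit of 5. None of the 18 log2 ratios of the members changed sign in the settings run for them, and 6 of 18 moved by 0.1 or more with a pseudocount of 1. The share of calls higher in cocaine was 57.5%, 56.6% and 41.2%. Without the FPKM limit it was 45.8%, 47.6% and 47.1%, so that at 2 h and 24 h the balance turned. At 24 h it was 68.9% with a pseudocount of 1, 69.9% at 2-fold and 69.6% with a limit of 5. Depth and the spread between libraries are unknown from pooled FPKM, which limits every low value most.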
